A study of Mus musculus with 16 samples.

Results

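The genes described here encode 10 proteins that coat, enlarge, supply or break down lipid droplets. They are listed by name: Plin2, Plin4 and Plin5 (perilipins), Cidea, Cideb and Cidec (the CIDE family), Fitm1 and Fitm2 (fat storage-inducing transmembrane proteins), and Pnpla2 with its inhibitor G0s2. All 10 were among the 25719 genes of the deposited table. RNA was sequenced from whole liver of 16 male mice, which were 8 to 12 weeks old when feeding began and were fed for 3 weeks. C57BL6J wild-type (WT) mice received a normal chow diet (NCD, n = 4) or a steatosis-steatohepatitis diet (SSD, n = 5), a chow rich in fat, fructose and cholesterol. Klrk1-/- mice, which lack the activating immune receptor NKG2D in every cell from birth, received NCD (n = 4) or SSD (n = 3). Each mouse gave 1 library. The study aimed to find how hepatocytes under metabolic stress alert immune cells and set off the inflammation of steatohepatitis.

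A lipid droplet is a core of triglyceride and cholesterol ester under a phospholipid monolayer, and it is the form in which a hepatocyte stores fat. Droplets bud from the endoplasmic reticulum, where FIT proteins help to partition newly made triglyceride. They are then coated by perilipins, which control access of lipases. CIDE proteins sit where droplets touch and let lipid pass from the smaller droplet to the larger, and Cideb also serves the lipidation of very low density lipoprotein. Pnpla2, also called adipose triglyceride lipase, removes the first fatty acid from triglyceride, and G0s2 binds and inhibits it. In fatty liver the hepatocyte comes to express droplet proteins that are otherwise typical of adipose tissue.

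The libraries held between 19892025 and 28936707 reads on genes. Values are the normalized counts of the authors, from which whole reads were recovered for 100% of values, and 1 read was worth 0.664 to 0.966 normalized counts in the SSD mice and 1.01 to 1.303 in the NCD mice. Klrk1, the deleted gene, had 1 to 7 reads in each Klrk1-/- mouse and 19 to 87 in each WT mouse, a log2 difference between Klrk1-/- and WT mice of -3.90 ± 0.41 (SE, limma adjusted p = 0.0016491) on SSD and -2.40 ± 0.46 (adjusted p = 0.0072368) on NCD. Defining hepatocyte genes such as Alb were among the most abundant, with a summed level of the 6 hepatocyte markers of 1512914 to 3155388 in the 16 mice. The WT SSD mice were not uniform. Replicates 2 and 3 held 1255 and 1133 normalized counts of the adipsin gene Cfd, against 0.966 to 91.4 in the other 14 mice. Replicate 1 held the highest sums of the macrophage markers (13267, against 5262 to 8464 in the other WT SSD mice) and stellate cell markers (11129, against 4517 to 6734), and the lowest hepatocyte sum (1512914).

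Cidec, Plin4, Plin2, Plin5 and G0s2 were called higher on SSD than on NCD in both genotypes, and Pnpla2 in Klrk1-/- mice. A gene was called changed when limma's moderated test, adjusted by Benjamini-Hochberg over all genes tested, gave an adjusted p under 0.05 together with a fold over 1.5. Of the 10 members, 9 passed the minimum mean of 10 normalized counts, Cidea being left out. In WT mice 5 of the 9 were called higher and 0 lower, while 11.9% of the 13091 genes tested were called higher and 7.32% lower. The 5 became 3, Cidec, Plin4 and Pnpla2, without the 2 mice of high Cfd, a choice made after seeing the data, and 4 without WT NCD replicate 3, WT NCD replicate 5 or WT SSD replicate 2. In Klrk1-/- mice 6 were called higher and 0 lower, against 6.54% of 12904 genes called higher and 6.60% lower. At an unadjusted p under 0.05 and with no fold limit, limma gave 0 of the 9 members lower in WT mice and 1, Fitm1, lower in Klrk1-/- mice, against 22.7% and 21.9% of all genes tested, and neither edgeR nor DESeq2 called a member lower in either genotype. The median log2 fold change of the 9 members was 0.59 in WT mice and 0.80 in Klrk1-/- mice, where the medians over all genes tested were -0.0015 and -0.0020. Of the 6 hepatocyte markers 2 were called lower on SSD in each genotype, with medians of -0.51 and -0.48 and a summed level of 2358432 to 2701304 in WT NCD, 1512914 to 1962150 in WT SSD, 2337528 to 3155388 in Klrk1-/- NCD and 2104597 to 2276147 in Klrk1-/- SSD mice, and 1 of 5 stellate cell markers was called higher in each. Of 7 macrophage markers 5 were called higher on SSD in WT mice and 3 in Klrk1-/- mice, with medians of 1.29 and 0.42. The part of all these cells in the members' changes was not tested. Scaling every library to the same total moved the median of all genes to 0.34 in WT and 0.25 in Klrk1-/- mice, and with it the split of all calls from 1564 higher and 958 lower to 3467 and 409 in WT mice, and from 844 and 852 to 2122 and 480 in Klrk1-/- mice. The members called were then 7 in each genotype. Between genotypes on SSD this scaling moved the median to -0.11 and the split from 93 higher and 186 lower to 52 and 272, and in the interaction it moved the split from 38 and 73 to 21 and 86.

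**Figure D1:**
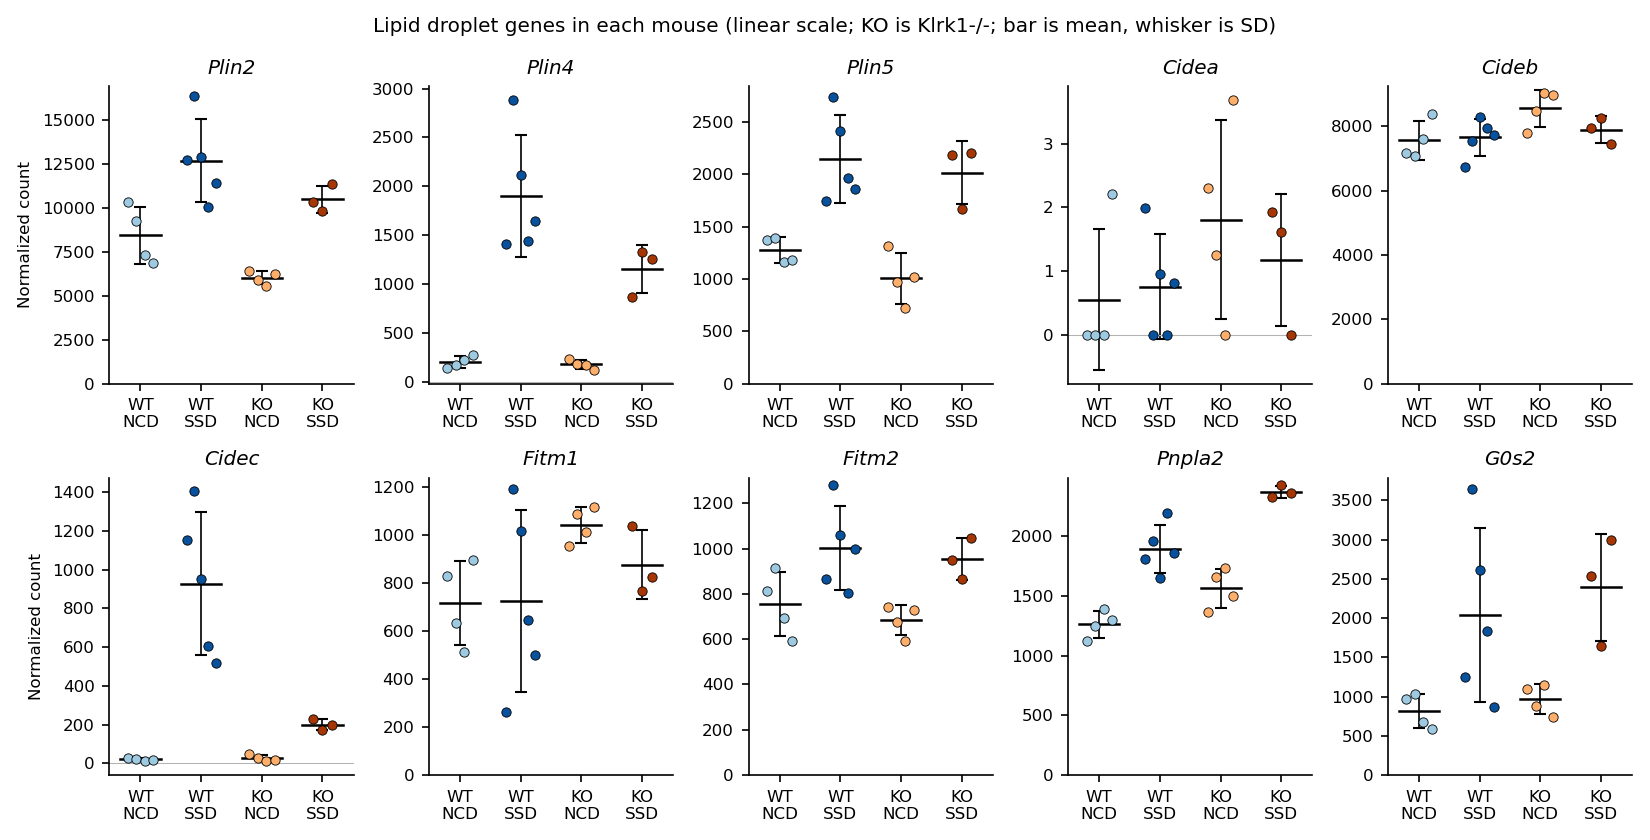
Normalized counts of the 10 genes in every mouse, by diet and genotype, with each point a mouse, each bar the group mean and each whisker the SD, on linear axes. Cidec and Plin4 have no overlap between diets in either genotype, and Cidec lies between 519 and 1407 in WT SSD mice but between 171 and 231 in Klrk1-/- SSD mice.

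Cidec, the protein that builds the large droplets of white fat cells, had the largest log2 fold change of the members tested in both genotypes. It lies on chromosome 6 (ENSMUSG00000030278, chr6:113401595-113412721, minus strand, GRCm39). In WT mice on NCD it was low, with 28.9, 22.2, 9.12 and 18.8 normalized counts in replicates 1, 2, 3 and 5, which came from 7 to 24 reads. On SSD the 5 WT mice had 1155, 1407, 952, 608 and 519. Every WT SSD mouse was far above every WT NCD mouse, replicate 2 being the highest and replicate 5 the lowest. The group means were 19.7 ± 8.25 (SD, n = 4) and 928 ± 371 (SD, n = 5), a ratio of 47.0, and the log2 fold change was 5.49 ± 0.34 (SE, limma adjusted p = 4.5261e-07), the fifth in rank among 13091 genes. The exact two-sided permutation test over mice gave p = 0.01587, the smallest this comparison allows.

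Cidec also rose in the Klrk1-/- mice. On NCD they had 48.3, 28.6, 11.2 and 18.5 normalized counts, and on SSD 231, 171 and 197. The diets did not overlap here either, and the means of 26.6 ± 16.1 (SD, n = 4) and 200 ± 30.0 (SD, n = 3) gave a ratio of 7.498. The log2 fold change was 3.04 ± 0.37 (SE, limma adjusted p = 0.0001181), and the exact permutation p of 0.05714 is the smallest that 3 against 4 mice can give.

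On SSD all 3 Klrk1-/- mice lay below all 5 WT mice for Cidec, the highest Klrk1-/- value being 231 and the lowest WT value 519. The mean was 4.65 times as high in WT as in Klrk1-/- mice, and the log2 difference was -2.12 ± 0.29 (SE, 95% confidence interval -2.77 to -1.47, limma adjusted p = 0.0083288, exact permutation p = 0.03571). Cidec was the only member called between genotypes on SSD, where 2.13% of 13116 genes were called. Those 279 genes became 45 to 447 when 1 mouse was left out, the fewest without Klrk1-/- SSD replicate 1 (45), 2 (80) or 3 (61), fewer also without WT SSD replicate 2 (143) or 3 (135), and the most without WT SSD replicate 1 (447). On NCD the genotypes overlapped, with a log2 difference of 0.33 ± 0.43 (limma adjusted p = 0.63546), so that from 7 to 42 reads per mouse no difference was detectable at this depth. The diet by genotype interaction, fitted over all 16 mice, was -2.45 ± 0.56 on the log2 scale (95% confidence interval -3.64 to -1.26, limma adjusted p = 0.048461), where 0.849% of 13068 genes were called. Those 111 genes became 37 to 185 when 1 mouse was left out, with 39 and 37 without Klrk1-/- SSD replicates 1 and 3, 68 and 63 without Klrk1-/- NCD replicates 1 and 2, 69 without WT NCD replicate 1, 66 without WT SSD replicate 4 and 185 without WT SSD replicate 5. The adjusted p of Cidec sat at the threshold. It rose above 0.05 in 14 of the 16 fits that left out 1 mouse (all but those without WT SSD replicate 5 or Klrk1-/- NCD replicate 3; range 0.023778 to 0.12684) and in 6 of 10 other settings (range 0.0038161 to 0.082276), while the estimate stayed between -2.11 and -2.78 throughout.

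**Figure D2:**
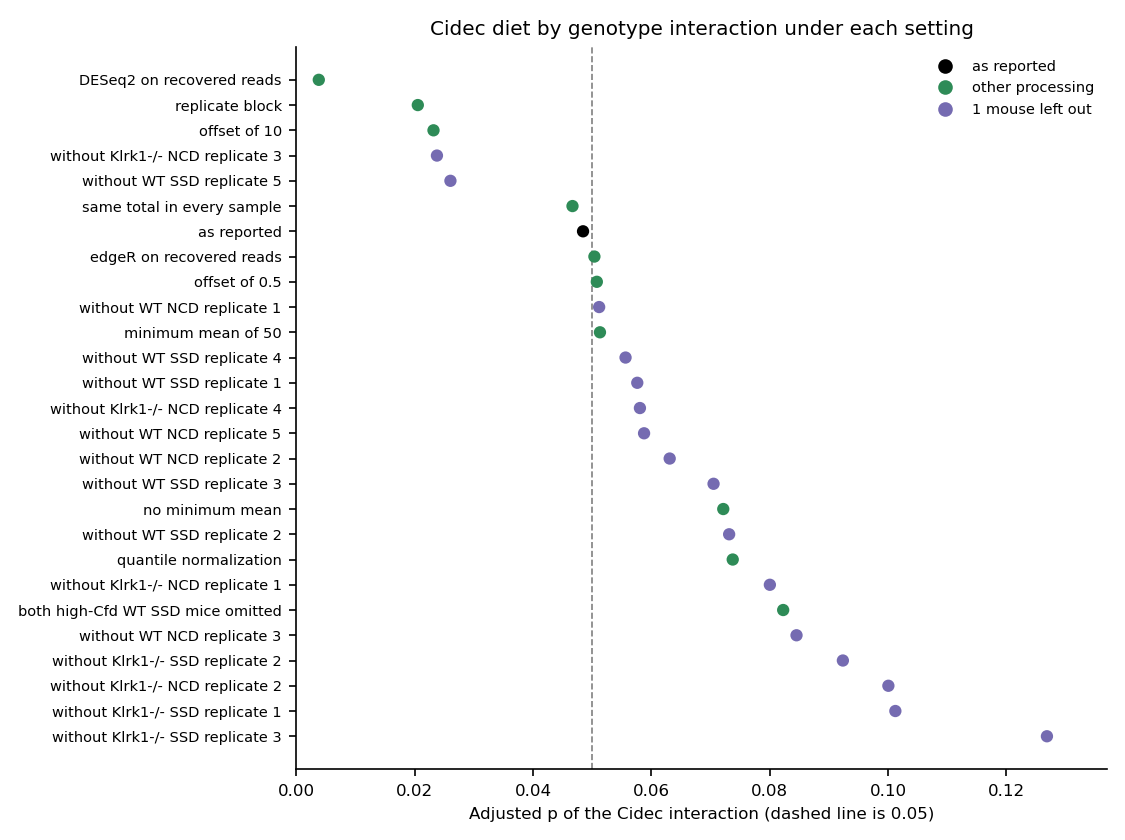
Adjusted p of the Cidec diet by genotype interaction under each way of processing the data (green), with each mouse left out (purple) and as reported (black), with the threshold of 0.05 as a dashed line. Values run from 0.0038161 to 0.12684 with most of them above the line, and the reported value of 0.048461 lies just below it.

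Cidec is also an adipocyte gene, and the adipocyte list was examined beside it. Of the 7 markers, Lep was at 0 in every mouse and Adipoq, Plin1, Retn and Ucp1 did not exceed 2.45 normalized counts in any, so the remaining 2, Cfd and Adrb3, made up almost the whole sum. That sum was 235 to 476 in WT NCD, 227 to 1545 in WT SSD, 484 to 939 in Klrk1-/- NCD and 492 to 593 in Klrk1-/- SSD mice. Adrb3 did not follow Cfd, being at 288 and 316 in the 2 mice of high Cfd and at 213 to 333 over all WT SSD mice. It had 216 to 456 normalized counts in WT NCD, 469 to 936 in Klrk1-/- NCD and 488 to 560 in Klrk1-/- SSD mice. Of the 2 markers, 1 was called higher on SSD in WT mice, where only Cfd had the higher mean, and 1 higher in Klrk1-/- than in WT mice on each diet, where only Adrb3 had. WT SSD replicate 1, with a Cfd of 9.30, had the second highest Cidec (1155). Without the 2 WT SSD mice of high Cfd the WT diet effect on Cidec was 5.21 (adjusted p = 9.3845e-06), the genotype difference on SSD was -1.84 (adjusted p = 0.037171), and the interaction was -2.17 and no longer passed (adjusted p = 0.082276). Macrophage markers moved with diet and genotype as well, their sum being 3523 to 4200 in WT NCD, 5262 to 13267 in WT SSD, 3331 to 3973 in Klrk1-/- NCD and 4517 to 5324 in Klrk1-/- SSD mice, with 5 of 7 called higher on SSD in WT mice, 3 of 7 in Klrk1-/- mice and 1 of 7 lower in Klrk1-/- than in WT mice on SSD. The part of these cells in the Cidec result was not tested. In whole liver, more cells of a type and more RNA per cell cannot be told apart.

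Because Cidec and Plin4 had the largest fold changes, bases upstream of a RefSeq start of each are shown, with those of Plin2, the member that held the motif searched for. For Cidec this is 1 of its 2 windows. The windows came from RefSeq (GRCm38.p6), were placed on GRCm39 by exact match, and are printed 5′ to 3′ on the strand of the gene, without bases annotated as exon. This leaves out 165 bases of Plin2 and 149 of Plin4, so their printed stretches do not reach the start.
Cidec, chr6:113412722-113412971, minus strand: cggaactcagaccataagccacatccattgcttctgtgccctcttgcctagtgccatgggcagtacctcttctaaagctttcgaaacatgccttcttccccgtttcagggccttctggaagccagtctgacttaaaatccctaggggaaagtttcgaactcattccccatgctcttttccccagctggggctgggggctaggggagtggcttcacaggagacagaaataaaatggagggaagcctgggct
Plin4, chr17:56416932-56417032, minus strand: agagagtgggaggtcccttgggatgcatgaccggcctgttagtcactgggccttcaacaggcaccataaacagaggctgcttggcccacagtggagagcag
Plin2, chr4:86588460-86588546, minus strand: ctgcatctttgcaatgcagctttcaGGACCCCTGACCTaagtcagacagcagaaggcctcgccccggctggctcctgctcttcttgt

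The capitals in Plin2 mark a match to AGGTCANAGGTCA, the direct repeat with 1 base between its parts that PPAR-RXR receptors bind, read on the strand opposite to the gene, from -225 to -213 relative to the start and with 2 mismatches in the 12 fixed letters. With at most 2 mismatches and both strands read, this was the only match in the 11 windows of 300 bases found for 9 members, and 1268 of 32851 mouse windows (3.86%) held one. The E-box CACGTG was also in 1 member window, that of Plin2 (-4 to 2), and in 7.15% of all windows. A match is a string of letters in a window and says nothing about binding.

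Among the perilipins, Plin4 had the largest fold change. This protein, abundant in fat and muscle, coats small, newly formed droplets (ENSMUSG00000002831, chr17:56407591-56416803). WT NCD mice had 135, 173, 218 and 269 normalized counts and WT SSD mice 1410, 2889, 2118, 1436 and 1640.3. All SSD values exceeded all NCD values, the 2 highest being in the mice with high Cfd. The log2 fold change was 3.24 ± 0.23 (SE, limma adjusted p = 1.6782e-06), and it was 2.95 (adjusted p = 7.3407e-06) without those 2 mice. Plin4 in Klrk1-/- mice went from 233, 178, 173 and 118 on NCD to 869, 1328 and 1257 on SSD, again without overlap, a log2 fold change of 2.72 ± 0.21 (limma adjusted p = 2.929e-06).

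On SSD the 3 Klrk1-/- mice were also below all 5 WT mice for Plin4, with means of 1152 ± 247 (SD, n = 3) and 1898 ± 622 (SD, n = 5). The difference of -0.69 ± 0.23 (log2, SE, 95% confidence interval -1.21 to -0.17) had a limma adjusted p of 0.12676 and did not pass, although DESeq2 called it (adjusted p = 0.03672). Without the 2 mice of high Cfd it was -0.40 (limma adjusted p = 0.24392). The interaction was -0.52 ± 0.35 (95% confidence interval -1.26 to 0.23, limma adjusted p = 0.46758). In GENCODE M39 Plin4 shares 3124 exonic bases with Hdgfl2 on the other strand, and whether counting used strand is not given in the sources used here. Hdgfl2 had a mean of 1015 normalized counts, and its own diet effect in WT mice was -0.22 ± 0.09 (adjusted p = 0.083826), in the direction opposite to that of Plin4.

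Plin2, the coat protein of hepatocyte droplets at all times, was the most abundant member per kilobase in 3 of the 4 groups (ENSMUSG00000028494, chr4:86566623-86588297). That place rests on listed gene lengths of 861 bases for Plin2 and 1050 for Cideb, which were not checked. WT NCD mice had 10328, 9248, 7323 and 6875 normalized counts and WT SSD mice 12729, 16415, 12889, 10033 and 11419.8. WT SSD replicate 4 lay below the highest NCD mouse, so the diets overlapped. The log2 fold change of 0.59 ± 0.16 (SE, limma adjusted p = 0.0126, exact permutation p = 0.03175) sat just past the fold limit, and the call was lost without WT NCD replicate 3 or 5, without WT SSD replicate 1, 2 or 3 (0.58, 0.49 and 0.58), and without both mice of high Cfd (0.45, adjusted p = 0.063889). The Klrk1-/- values were 6436, 5919, 5558 and 6228 on NCD against 10331, 9830.3 and 11345 on SSD. These did not overlap, and the log2 fold change was 0.80 ± 0.09 (SE, limma adjusted p = 4.3901e-05).

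On NCD Plin2 was lower in Klrk1-/- than in WT mice, each of the 4 Klrk1-/- mice being below each of the 4 WT mice. The difference was -0.47 ± 0.12 (log2, SE, limma adjusted p = 0.029012, exact permutation p = 0.02857), within the fold limit of 1.5. On SSD it was -0.26 ± 0.14 (95% confidence interval -0.58 to 0.06, adjusted p = 0.31991), and the values overlapped.

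Plin5, which ties droplets to mitochondria in fat-burning tissue and restrains lipolysis, rose in both genotypes (ENSMUSG00000011305, chr17:56418601-56424596). It lies 1797 bases from Plin4. WT NCD mice had 1377, 1387, 1159 and 1182 normalized counts and WT SSD mice 1744, 2745, 2415, 1968 and 1858. The diets did not overlap, and the log2 fold change was 0.73 ± 0.13 (SE, limma adjusted p = 0.0015143), falling within the fold limit (0.54, adjusted p = 0.0054598) without the 2 mice of high Cfd. Klrk1-/- mice went from 1318, 967, 724 and 1021 on NCD to 2184, 1666 and 2202 on SSD, a log2 fold change of 1.02 ± 0.17 (limma adjusted p = 0.001068) with no overlap. Between genotypes Plin5 differed by -0.08 ± 0.16 on SSD (adjusted p = 0.79874) and by -0.37 ± 0.15 on NCD (adjusted p = 0.11464).

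Pnpla2, the lipase that opens triglyceride breakdown, was called in Klrk1-/- mice and missed the fold limit in WT mice (ENSMUSG00000025509, chr7:141035111-141040656). Its values were 1122, 1243, 1392 and 1297 in WT NCD mice and 1808, 1959, 1651, 2195 and 1859.9 in WT SSD mice. There was no overlap, and the log2 fold change of 0.58 ± 0.10 (SE, limma adjusted p = 0.00093225) corresponds to a fold of 1.497, just under the limit of 1.5. It passed the limit under DESeq2 (0.59), after quantile normalization (0.68), with a common total (0.93), without the 2 mice of high Cfd (0.63), and without any of WT NCD replicates 3 and 5 and WT SSD replicates 1, 3 and 5 (0.59 to 0.63). Klrk1-/- mice had 1367, 1654, 1729.9 and 1501 on NCD and 2327, 2425 and 2359.7 on SSD. In these mice the log2 fold change of 0.61 ± 0.09 (SE, limma adjusted p = 0.00052206) was called, with a fold of 1.522, and fell within the limit without Klrk1-/- NCD replicate 1 (0.54). The 3 Klrk1-/- SSD mice were above all 5 WT SSD mice, by 0.33 ± 0.09 (log2, SE, limma adjusted p = 0.08366), which did not pass, and on NCD the difference was 0.31 ± 0.10 (adjusted p = 0.060689).

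G0s2, the inhibitor of Pnpla2, rose in both genotypes (ENSMUSG00000009633, chr1:192954469-192955525). WT NCD mice had 969.6, 1037, 682 and 587 normalized counts and WT SSD mice 1255, 3639.6, 2609, 1835 and 869. The mice with high Cfd were the 2 highest, and WT SSD replicate 5 was below the 2 highest NCD mice. The log2 fold change was 1.18 ± 0.35 (SE, limma adjusted p = 0.021741, exact permutation p = 0.04762), and the call was lost without WT NCD replicate 3 or 5 and without both mice of high Cfd (0.66, adjusted p = 0.084289). G0s2 in Klrk1-/- mice went from 1091, 879.7, 1153 and 744 on NCD to 2536, 1650.3 and 2993 on SSD, with no overlap and a log2 fold change of 1.28 ± 0.19 (limma adjusted p = 0.00053113). In normalized counts, not divided by gene length, G0s2 stood at 0.660 ± 0.219 of Pnpla2 in WT NCD, 1.09 ± 0.600 in WT SSD, 0.623 ± 0.138 in Klrk1-/- NCD and 1.01 ± 0.302 in Klrk1-/- SSD mice (mean ± SD). G0s2 shares 119 exonic bases with Lamb3 on the other strand, which had a mean of 79.5 normalized counts and a WT diet effect of 0.84 ± 0.23 (log2, adjusted p = 0.016519).

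With limma and the authors' scaling neither FIT gene was called for diet. Fitm2, the form found in most tissues, had log2 fold changes on SSD of 0.41 ± 0.15 (SE, limma adjusted p = 0.053531) in WT and 0.48 ± 0.10 (adjusted p = 0.0051455) in Klrk1-/- mice, within the fold limit in both (ENSMUSG00000048486, chr2:163308299-163314549). Scaled to a common total it was called in both genotypes (0.75, adjusted p = 0.0016978, and 0.74, adjusted p = 0.00045025), a scaling that put the median gene at 0.34 and 0.25. Its values ran from 590.4 to 914 in WT NCD, 803 to 1279 in WT SSD, 592 to 739.8 in Klrk1-/- NCD and 866 to 1048 in Klrk1-/- SSD mice, overlapping between diets in WT mice and not in Klrk1-/- mice.

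Fitm1, the muscle form, had values that overlapped between diets in both genotypes (ENSMUSG00000022215, chr14:55813074-55814411). WT NCD mice had 829.7, 634, 514 and 894 normalized counts, and WT SSD mice 264, 1193, 1017, 645 and 500.5. The WT SSD group therefore reached both below and above the NCD group, its lowest value being in the mouse with the highest macrophage sum and its 2 highest in the mice with high Cfd. The log2 fold change was -0.14 ± 0.36 (SE, 95% confidence interval -0.93 to 0.65, limma adjusted p = 0.78829), and its sign turned under edgeR, DESeq2 and scaling to a common total, and without WT SSD replicate 1 (0.17, adjusted p = 0.62172). Without the 2 mice of high Cfd it was -0.67 (adjusted p = 0.10645). In Klrk1-/- mice it was -0.26 ± 0.11 (adjusted p = 0.095394). On NCD the 4 Klrk1-/- mice (952, 1086, 1012 and 1117) were all above the 4 WT mice, by 0.57 ± 0.15 (log2, SE, limma adjusted p = 0.028953, exact permutation p = 0.02857), just within the fold limit. It was called without WT NCD replicate 1 or 5 or Klrk1-/- NCD replicate 1. The 5 skeletal muscle markers summed to 14.1 to 47.3 normalized counts in any mouse, with Fitm1 at 264 to 1193.

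Cideb and Cidea stood at opposite ends of the CIDE family. Cideb, the hepatocyte member, was high in all mice (ENSMUSG00000022219, chr14:55991507-55995915). It had 7069 to 8401 normalized counts in WT NCD, 6748 to 8304 in WT SSD, 7798 to 9029.9 in Klrk1-/- NCD and 7448 to 8272 in Klrk1-/- SSD mice, overlapping in every comparison. The diet effect was 0.02 ± 0.09 (log2, SE, 95% confidence interval -0.18 to 0.22, limma adjusted p = 0.8975) in WT and -0.12 ± 0.08 (95% confidence interval -0.30 to 0.07, adjusted p = 0.31675) in Klrk1-/- mice. Both values moved with the scaling. The WT effect was 0.36 (adjusted p = 0.0039064) with a common total, where the median gene was at 0.34, and 0.35 (adjusted p = 0.014366) after quantile normalization, within the fold limit, and the Klrk1-/- effect was 0.14 and 0.083. Without the 2 mice of high Cfd the WT effect was -0.02 (adjusted p = 0.92929). Cideb shares 1136 exonic bases with Nop9 on the other strand, whose mean of 459 normalized counts was far lower. Nop9 had a diet effect of -0.39 ± 0.085 (log2, SE, limma adjusted p = 0.0047481) in WT mice and -0.28 ± 0.087 (adjusted p = 0.030399) in Klrk1-/- mice. Cidea, typical of brown fat, had 0 to 3 reads in each mouse. That is at or below the floor of 3 reads (1.99 to 3.91 normalized counts), so no fold is given for it. It lies on chromosome 18 (ENSMUSG00000024526, chr18:67476674-67500855).

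**Figure D3:**
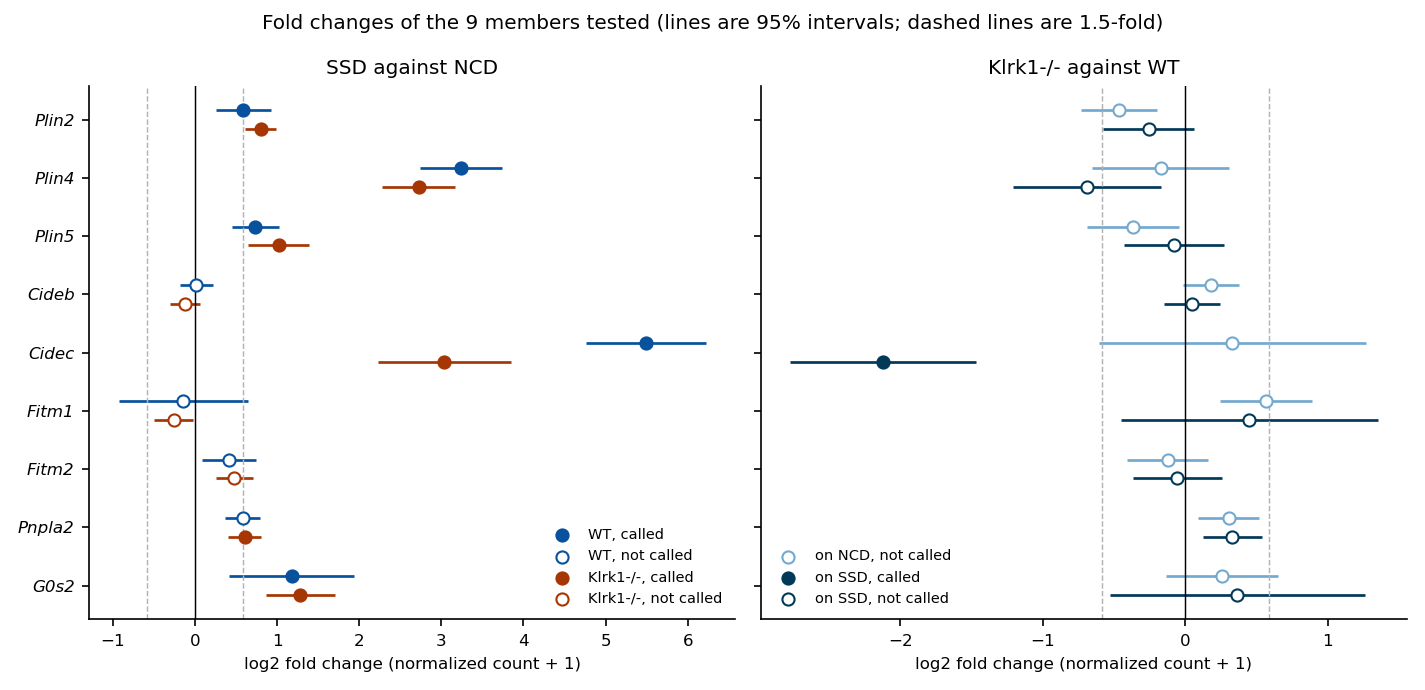
Log2 fold changes of the 9 members tested, with 95% confidence intervals, for the diet effect in each genotype (left) and for Klrk1-/- against WT on each diet (right), with filled points for called genes. Cidec stands at 5.49 and 3.04 for diet and at -2.12 between genotypes on SSD, and Cideb lies at 0.02 and -0.12.

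Between genotypes on NCD 0 of the 9 members were called by limma, where 5.79% of 12845 genes were, a count over all genes that went from 744 to 425 without Klrk1-/- NCD replicate 3. Neither edgeR nor DESeq2 called any, and 4 of the 9 had an unadjusted p under 0.05 with limma, against 31.0% of all genes tested, Pnpla2 and Fitm1 being higher and Plin2 and Plin5 lower in Klrk1-/- mice. On SSD, 3 of the 9 had an unadjusted p under 0.05, against 22.9% of all genes tested, Cidec and Plin4 being lower and Pnpla2 higher. The comparisons share groups of mice, so these counts are not independent of those for diet.

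The order of the members by level was read per kilobase of the gene length listed in the table, as mean ± SD of normalized counts per kb. In WT mice on NCD Plin2 (9806 ± 1886) and Cideb (7205 ± 573) led. They were followed at a distance by G0s2 (940.1 ± 251), Pnpla2 (816 ± 72.9), Fitm1 (739 ± 181) and Plin5 (643 ± 61.8). Neighbours among these genes differed by less than the larger SD of each pair, but by more than the smaller. Fitm2 (189.9 ± 35.5), Plin4 (33.4 ± 9.72), Cidec (17.2 ± 7.20) and Cidea (0.495 ± 0.990) closed the list. On SSD Cidec moved from ninth to sixth place in WT mice (809.9 ± 324), between Plin5 (1081 ± 212) and Fitm1 (746 ± 390) and not apart from either beyond their spread. In Klrk1-/- mice it stayed ninth (174 ± 26.1), below Plin4 (193 ± 41.5) by less than their spread. In Klrk1-/- mice on NCD Cideb (8160 ± 544) was ahead of Plin2 (7009 ± 444). The order depends on the listed lengths, such as 861 bases for Plin2 and 1050 for Cideb, and a longer Plin2 would stand lower.

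The make-up of the families shifted with these changes. Cidec was 0.242 ± 0.110% (SD) of the CIDE family per kb in WT NCD mice and 9.996 ± 3.985% in WT SSD mice, against 0.293 ± 0.197% and 2.27 ± 0.374% in Klrk1-/- mice. Plin4 went from 0.339 ± 0.154% to 1.95 ± 0.315% of the 3 perilipins in WT mice and from 0.391 ± 0.0956% to 1.45 ± 0.343% in Klrk1-/- mice. Plin2 remained at 90.4 to 94.4% of them in every mouse, a share that depends on the listed lengths (861 bases for Plin2, 5954 for Plin4 and 1986 for Plin5).

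The genes whose pattern over the 16 mice was nearest to that of a member were taken by the root mean square difference of centred log2 values among 13068 genes. For Cidec, itself spread by 2.45, they were Psat1 (0.663) and Phgdh (0.787), enzymes of serine synthesis, and Ly6d (0.724). Psat1 had a mean of 12.8 normalized counts in WT NCD and 434 in WT SSD mice, and 16.8 and 219 in Klrk1-/- mice. For Plin4, spread by 1.59, the nearest were Gadd45b (0.471), Nupr1 (0.472) and Gsta1 (0.494). Ldha, lactate dehydrogenase A, was nearest to both Plin2 (0.104) and Plin5 (0.168), followed by Gm45213 and Tmem64 for Plin2 and by Cmtm4 and Acad11 for Plin5. Those nearest to G0s2 were Acaa1b, a peroxisomal thiolase (0.398), Impa2 and Acot4. Fitm2 was nearest to Pcx (0.0887), pyruvate carboxylase, then Hsd17b4 and Flot2, and Fitm1 to Gm11992 (0.250), Serpinb1a and Zfp964. Pnpla2 was nearest to Ccdc82 (0.129), Atn1 and Zfand5. Cideb was nearest to Carm1 (0.0645), Fam114a2 and Sirt2, against a spread of only 0.115 for Cideb itself.

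Other genes of droplet biology were read from 4 lists. Of 14 tested genes of droplet coat and assembly, 3 were called higher and 1 lower on SSD in WT mice, and 2 and 1 in Klrk1-/- mice. Over all genes tested 11.9% were called higher and 7.32% lower in WT mice, and 6.54% and 6.60% in Klrk1-/- mice. The enzyme genes Hsd17b11 (1.23 ± 0.12 and 1.40 ± 0.10 on the log2 scale in WT and Klrk1-/- mice) and Hsd17b13 (1.12 ± 0.12 and 0.77 ± 0.10), both of droplet-bound dehydrogenases, were called in both genotypes, and Hilpda (0.91 ± 0.21), an inhibitor of Pnpla2, in WT mice. Acsl3, an acyl-CoA synthetase of nascent droplets, fell by 0.92 and 0.79. The list's median fold change was -0.04 in WT and 0.11 in Klrk1-/- mice.

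Of the 8 genes of lipolysis, 2 were called higher and 3 lower in WT mice, and 4 and 1 in Klrk1-/- mice, with medians of -0.18 and 0.16. The shares over all genes tested were 11.9% higher and 7.32% lower in WT mice, and 6.54% and 6.60% in Klrk1-/- mice. Mgll, which splits monoglycerides, rose by 0.94 ± 0.17 and 1.19 ± 0.09, and Lipa, the lysosomal lipase, by 0.62 ± 0.15 and 0.61 ± 0.12, the WT call of Lipa being lost without the 2 mice of high Cfd (0.53, adjusted p = 0.056556). Pnpla3 fell by 2.41 ± 0.54 and 3.27 ± 0.44. Abhd5, the protein that activates Pnpla2, fell by 0.91 ± 0.11 in WT mice, from 1102 ± 169 to 582 ± 36.3 normalized counts, and Aadac fell by 0.67 ± 0.13. In Klrk1-/- mice Abhd5 (-0.58 ± 0.14, adjusted p = 0.0085035) and Aadac (-0.58 ± 0.086, adjusted p = 0.00044244) passed the adjusted p and were just within the fold limit. Ces1d (1.101 ± 0.17) and Ddhd2 (0.65 ± 0.11) were called in Klrk1-/- mice. In WT mice Ces1d was at 0.077 ± 0.32 (adjusted p = 0.86655), and at -0.24 (adjusted p = 0.63381) without the 2 mice of high Cfd.

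Of 10 tested genes of triglyceride synthesis, 2 were called higher and 1 lower in WT mice, and 1 and 2 in Klrk1-/- mice, with medians of 0.21 and -0.25. The shares over all genes tested were 11.9% higher and 7.32% lower in WT mice, and 6.54% and 6.60% in Klrk1-/- mice. Of the glycerol-3-phosphate acyltransferases, Gpat3 rose by 3.94 ± 0.31 in WT mice, from 24.9 ± 10.02 to 398 ± 185 normalized counts, and by 2.85 ± 0.20 in Klrk1-/- mice, while Gpam, the mitochondrial form, fell by 1.14 ± 0.11 and 1.29 ± 0.10. Gpat4 was not called, at -0.024 ± 0.12 (adjusted p = 0.88894) in WT mice and 0.41 ± 0.097 (adjusted p = 0.0089259, within the fold limit) in Klrk1-/- mice. Agpat2, the next acyltransferase of the pathway, was lower on SSD but within the fold limit in both genotypes. It was at -0.54 ± 0.12 (limma adjusted p = 0.0053544) in WT mice and -0.37 ± 0.10 (adjusted p = 0.019019) in Klrk1-/- mice. Agpat2 was called lower in WT mice when the 2 mice of high Cfd were left out (-0.73, adjusted p = 0.00060417). Lpin2, a phosphatidate phosphatase, rose by 0.75 ± 0.14 in WT mice, and its relative Lpin1 fell by 1.48 ± 0.16 in Klrk1-/- mice. Of the 4 lists limma called only these between genotypes or in the interaction, Lpin1 (1.22 ± 0.17, limma adjusted p = 0.0011694) and Lpin2 (0.64 ± 0.11, adjusted p = 0.0040937) being higher in Klrk1-/- mice on NCD and both having a negative interaction (-1.93 ± 0.35, adjusted p = 0.015776, and -1.03 ± 0.18, adjusted p = 0.01383). On NCD edgeR also called Ces1d lower in Klrk1-/- mice (-0.78, adjusted p = 0.04676).

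Of the 5 genes of nuclear receptors and fatty acid uptake, 4 were called higher and 0 lower in WT mice, with a median of 1.07, and 2 and 0 in Klrk1-/- mice, with a median of 0.52. The shares over all genes tested were 11.9% higher and 7.32% lower in WT mice, and 6.54% and 6.60% in Klrk1-/- mice. Pparg, a nuclear receptor known to drive droplet protein genes in fat cells, rose by 1.22 ± 0.18 in WT and 0.74 ± 0.13 in Klrk1-/- mice. Cd36, a fatty acid transporter, rose by 2.48 ± 0.31 and 1.09 ± 0.19. Its WT SSD mice ran from 871 to 2747 normalized counts and its Klrk1-/- SSD mice from 477 to 661. Ppara (0.71 ± 0.17) and Fabp4 (1.07 ± 0.19) were called in WT mice and not in Klrk1-/- mice, and limma called neither in the interaction, where DESeq2 called Fabp4 (-0.90, adjusted p = 0.040718). No gene of the 4 lists was called by limma between genotypes on SSD, where 3 of 14, 2 of 8, 2 of 10 and 3 of 5, in the order of the lists given here, had an unadjusted p under 0.05, against 22.9% of all genes tested. DESeq2 called 1 gene of synthesis, Lpin1 (-0.79), and 2 of uptake, Cd36 (-1.62) and Pparg (-0.67), lower in Klrk1-/- mice there, and edgeR called 0. Without WT SSD replicate 1 limma called Cd36 (-1.30, adjusted p = 0.036436), and without the 2 mice of high Cfd it called none of the 4 lists, Cd36 being at -1.24 (adjusted p = 0.15784).

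**Figure D4:**
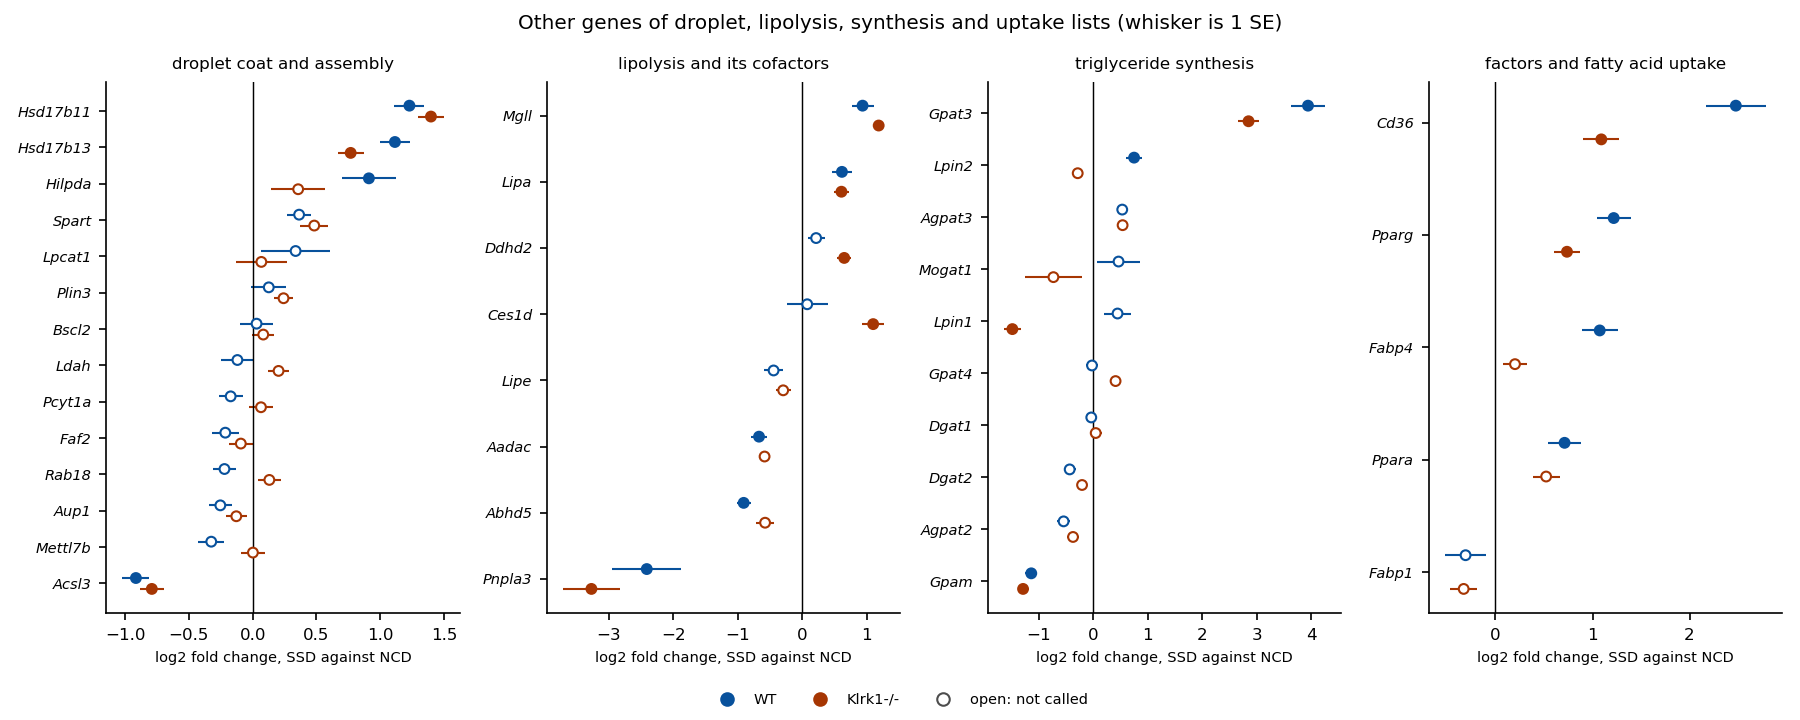
Log2 fold changes of SSD against NCD for the tested genes of the 4 lists, in WT (blue) and Klrk1-/- mice (brown), with filled points for called genes and whiskers of 1 SE. Gpat3 is highest (3.94 in WT and 2.85 in Klrk1-/- mice) and Pnpla3 lowest (-2.41 and -3.27), and Cd36 is second highest in WT mice (2.48).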

How the data were processed

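Single reads of 100 bases from liver RNA were aligned by the authors with STAR to GRCm39 and counted with FeatureCounts against GENCODE M26, as the methods and processing notes state. The labels and the methods name different TruSeq kits, and the strand setting of counting is not given in the sources used here. The deposited table holds normalized counts per gene, a signal that equals whole read counts times 1 factor per mouse. All values gave whole reads within a tolerance of 0.1. How the authors computed the factors is not given in the sources used here, which name DESeq2 for fold changes.

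From these values, limma 3.58.1 (R 4.3.3, trend) was fitted to log2(normalized count + 1) over genes with a mean of at least 10 in the mice compared, all 16 mice entering for the interaction. Fold changes are on that scale, which understates low genes. Calls needed an adjusted p under 0.05 (Benjamini-Hochberg over all genes tested) and a fold over 1.5. Exact two-sided permutation tests over mice were run for each member with scipy 1.17.1. edgeR 4.0.16 and DESeq2 1.42.0 were run on the recovered reads as alternatives. The limma fit of each comparison was tested on simulated data. Offsets of 0.5 and 10, other minimum means, scalings and fold limits, a replicate block and each mouse left out were also tried. The members and lists were chosen with earlier results of these data known. The genes named are every member, the 3 genes nearest in pattern to each member tested, the list genes called for diet, and list genes called under an alternative, the last chosen after their values were seen. Of the list genes, Ldaf1 was not matched in the table. Spread between mice includes both biological and technical error, and depth limits genes such as Cidea and Cidec on NCD to a few reads, the floor being 3 reads.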

Additional observations from a re-analysis of the deposited data

Results flagged for a closer look

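Of 30 groups of 4 or 5 mice in which a member's extreme value was compared with the group's range, 1 held a mouse apart from the rest, and chance gives about 1 in 20. It was Cidea in WT NCD mice, where replicate 5 had 2.207 normalized counts, from 2 reads, and the other 3 mice had 0. These values are all below the floor of 3 reads.

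The diet effect on Cidec differed between Klrk1-/- and WT mice by -2.4523 on the log2 scale (limma adjusted p = 0.048461), with the diet effect higher in WT mice. The adjusted p ranged from 0.0038161 to 0.12684 over the alternatives, and the difference kept its sign in all 26 of them.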

How the results depend on the processing

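Over 899 alternative values of 45 fold changes, 809 kept direction and side of the threshold, 31 lost the call, 17 gained it and 42 changed sign, the last all of values that had not been called. The number of members called for diet in WT mice was 3 with a fold limit of 2, where the calls over all genes went from 2522 to 1179. It was also 3 without both mice of high Cfd (an alternative chosen after seeing the data), and ran from 4 to 6 with each mouse left out. In Klrk1-/- mice it was 4 with a fold limit of 2, where the calls over all genes went from 1696 to 704, and ran from 5 to 6 with each mouse left out. Between genotypes on SSD it was 2 under DESeq2, Plin4 joining Cidec while the calls over all genes went from 279 to 669, and 1 whichever mouse was left out. On NCD it was 2 without a fold limit, where the calls over all genes went from 744 to 1679, and 0 to 1 with each mouse left out. For the interaction it was 0 with an offset of 0.5, without a minimum mean, with a minimum mean of 50, after quantile normalization, under edgeR and without both mice of high Cfd, and 0 to 1 with each mouse left out. The cause was not tested.

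Mice with the same replicate number did not deviate together in most pairs (13 pairs, r from -0.146 to 0.237, 4 over 0.1), so the numbers were not taken as pairing. The 4 all involved Klrk1-/- SSD mice. They were replicates 1 and 2 between diets in Klrk1-/- mice (0.153 and 0.103) and replicates 1 and 3 between genotypes on SSD (0.151 and 0.237). With the replicate number as a block, the members called were 2 between genotypes on SSD, Plin4 (-0.86, adjusted p = 0.018644) joining Cidec, and 1 on NCD, Fitm1 (0.65, adjusted p = 0.016635). The calls over all genes went to 597 and 1130 in these fits. Plin4 on NCD was 0.16 with the block.

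Signs turned as follows, in log2 units and for uncalled values. For diet in WT mice Fitm1 was 0.20 with a common total, 0.0091 under edgeR and 0.016 under DESeq2, and Cideb was -0.017 without both mice of high Cfd. For diet in Klrk1-/- mice Cideb was 0.14 with a common total and 0.083 after quantile normalization. Between genotypes on SSD Cideb was -0.069 and -0.046 under the same scalings, and without both mice of high Cfd Plin5 was 0.11 and Fitm2 0.10. In the interaction Fitm2 was -0.020 and Pnpla2 -0.064 with a common total, Pnpla2 was -0.024 after quantile normalization, G0s2 was -0.00023 under edgeR and -0.013 under DESeq2, and without both mice of high Cfd Fitm1 was 0.41 and Pnpla2 -0.022. With each mouse left out, the values that turned ran from -0.014 to 0.069 (Cideb) and -0.37 to 0.17 (Fitm1) for diet in WT mice, -0.15 to 0.052 (Plin5) and -0.13 to 0.038 (Fitm2) between genotypes on SSD, -0.011 to 0.66 (Cidec) and -0.34 to 0.0031 (Plin4) on NCD, and -0.43 to 0.11 (Fitm1), -0.031 to 0.18 (Fitm2), -0.038 to 0.080 (Pnpla2) and -0.16 to 0.36 (G0s2) in the interaction.

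Groups held 3 to 5 mice, each measured once. The small Klrk1-/- SSD group cannot give an exact p under 0.05714 against Klrk1-/- NCD. Cidea was too low for the limma fit, and the fold of Cidec rests on 7 to 42 reads per mouse on NCD.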
